A study of Caenorhabditis elegans with 4 samples.

Results

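Chromosome III of Caenorhabditis elegans, 1 of its 5 autosomes, held 801 of the 6799 NHR-11 binding sites in the series-level list. It held 365 of the 2612 sites in the list of ChIP replicate 1 and 400 of the 2834 in that of ChIP replicate 2. Every listed site whose chromosome is III was taken, with no choice by strength. The series has 4 samples, 2 ChIP libraries and 2 input libraries, numbered replicate 1 and 2 in each group. All are from the same strain, OP305, which is mutant for unc119(ed3), carries the transgene wgIs305, and was taken as hermaphrodites at the L4 larval stage grown at 20 °C. The transgene holds nhr-11::TY1 EGFP FLAG together with unc119, which rescues the mutant, and was brought in by bombardment. The labels state that the fusion protein follows the gene's own expression pattern. Chromatin was fixed with 2% formaldehyde, NHR-11 was pulled down with antibodies to GFP, and the input libraries hold the extract's DNA before that step. Site lists were used for the ChIP libraries. Neither a list for the input libraries nor one for worms without the tag was used here, so the lists do not separate NHR-11 sites from regions that any GFP ChIP would enrich.

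NHR-11 is a nuclear hormone receptor. Receptors of this family are transcription factors that bind DNA through zinc fingers and, in many members, change their activity when a small lipophilic molecule binds. The family is greatly expanded in nematodes, and most of its members have no known ligand. The autosomes of C. elegans have a central region with many genes and little recombination, between 2 arms with more repeats and more recombination. The rescue gene unc-119 is itself on chromosome III. Genes, exons and introns at the sites were not analysed here, because no annotation or sequence of the build WS220 was used, and no sequence is shown.

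The authors deposited 1 significance value for every site. It is given here as −log10, so that a higher number means a stronger site, and it serves to rank sites within a list. No read counts accompany the lists, so the depth is unknown. A series-level site was called found in a replicate when it overlapped a site of that replicate by at least 1 bp. The series-level values stood differently against the replicates on different chromosomes. Where 1 series-level site met 1 site in each replicate, its value over the replicates' sum had a median of 1.05 on III, 1.09 on II and 1.03 on V, but 1.40 on I and 1.39 on IV. Comparisons in the series-level list are therefore given both against I, II, IV and V and against II and V alone.

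The strongest NHR-11 site on chromosome III lay in the centre of the chromosome, at 4237565 to 4238209. It reached 118.8 in the series-level list, 76.0 in replicate 1 and 78.2 in replicate 2, and was 645, 606 and 573 bp wide. It led chromosome III in all 3 lists and was narrower than most of the other strong sites. The site of rank 2 followed 43.5 kb to its right, at 4281691 to 4282743. Its values were 89.98 in the series-level list, 50.5 in replicate 1 and 46.7 in replicate 2, which placed it at ranks 2 and 3 on III in the replicates. A further site sat 300 bp beyond it, at 4283044 to 4283510, with 21.4 in the series-level list, and both replicates held it too. Within 50 kb of the strongest site, 10 other series-level sites were listed and 5 of them were found in both replicates.

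The next site in strength, at 4899603 to 4900167, stood alone by comparison. Its values were 75.5, 44.4 and 43.99 in the series-level list, replicate 1 and replicate 2. Only 2 series-level sites lay within 50 kb of it, and neither was found in both replicates. Rank 4, at 10758903 to 10759451, was the strongest on the right arm. It reached 72.1 in the series-level list, 47.2 in replicate 1 and 53.8 in replicate 2, which made it rank 2 of III in replicate 2 and rank 3 in replicate 1. At 565 and 549 bp, both were narrower than the median of the 15 strongest sites (1151 bp) and wider than that of all series-level sites of III (395 bp).

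Sites 5 and 6 were wider and had close neighbours. The site at 8801244 to 8802659 had 63.9, 30.9 and 34.5 in the same order of lists. A site with 20.2 in the series-level list, at 8799765 to 8800975, ended 268 bp before it. The site at 12612183 to 12613795 had 60.3, 33.6 and 31.6, and a site of 2107 bp with 37.8 in the series-level list began 306 bp after it. Each of these neighbours was found in both replicates, so each stretch carried a pair of repeated sites.

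The left arm had no site among the first 8. Its strongest, at 1920883 to 1921906, ranked 9 on III with 47.01 in the series-level list, 21.5 in replicate 1 and 22.8 in replicate 2. A wide site of 3704 bp nearer the left end, at 832480 to 836183, ranked 15 with 42.9, 16.4 and 14.7, and was split into 2 sites in replicate 1 and 3 in replicate 2. Of the 15 strongest sites, 10 were in the centre, 3 on the right arm and 2 on the left arm.

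The rest of the 15 strongest sites were in the centre or near the right end, and most were wider than 1 kb. The site at 8416911 to 8418061 had 52.1 in the series-level list, 25.5 in replicate 1 and 26.0 in replicate 2. The site at 7854359 to 7854821, the narrowest of the 15 with 463 bp, had 46.5, 29.4 and 26.9. The site at 7334924 to 7336492 had 45.7, 19.4 and 23.3 and was split into 2 sites in replicate 1. On III these 3 sites ranked 9, 8 and 21 in replicate 1, and 12, 11 and 14 in replicate 2. The site at 8657868 to 8658737 had 45.1, 21.1 and 28.9, and ranked 17 on III in replicate 1 and 8 in replicate 2. The site at 9618718 to 9621163, 2446 bp wide, had 44.9, 24.5 and 21.2, and ranked 11 and 18.

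**Figure D1:**
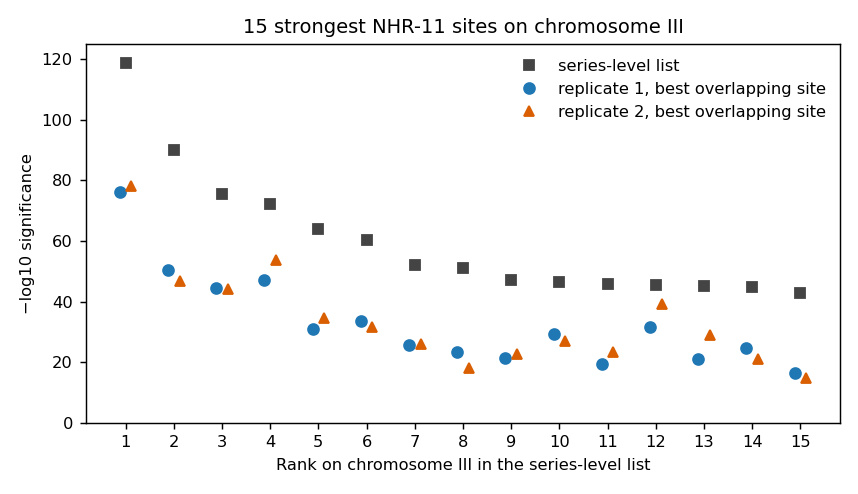
The horizontal axis is the rank of the 15 strongest series-level sites on chromosome III, and the vertical axis is the authors' significance as −log10. Squares are the series-level list, and circles and triangles are the best overlapping site in replicate 1 and replicate 2. The first site stands at 118.8, 76.0 and 78.2, and the site of rank 15 at 42.9, 16.4 and 14.7.

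All 15 strongest sites were found in both replicates, which are the only ChIP libraries of the series. This was not particular to III. On the other autosomes, 510 of the 511 sites with a series-level value of 20 or more were found in both. By rank within III, 11 of the 15 were also among the first 15 in replicate 1, 12 in replicate 2, and 9 in both. The lowest ranks were 32 and 40, at the split site at 832480. The site at 3866161 to 3867768 stood higher in the replicates than its series-level place of 12 on III. It had 45.6 in the series-level list, 31.7 in replicate 1 and 39.3 in replicate 2, where it ranked 6 and 5. The narrowest of the 15 measured 463 bp and the widest 3906 bp, around a median width of 1151 bp. The next site in rank had 41.5, close to the 42.9 of rank 15. Across the whole genome, III had 8 of the first 100 series-level sites, 15 of the first 100 in replicate 1 and 13 of the first 100 in replicate 2, beside 11.8%, 13.97% and 14.1% of all sites in these lists.

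The widest site on III, at 7722483 to 7726755, measured 4273 bp, but it was not among the strongest. It had 22.5 in the series-level list, 5.13 in replicate 1 and 11.3 in replicate 2, where the overlapping sites were 1341 and 2185 bp wide. Another of the 5 widest, at 7727918 to 7731364, began 1162 bp after it, with 36.6, 19.8 and 13.4. A further wide site of the same stretch, at 7736520 to 7738099, was the strongest site of III found in 1 replicate only, with 13.3 in the series-level list and 3.75 in replicate 1. This stretch thus held 3 sites of over 1 kb, and their best overlapping sites in the replicates ranged from 3.75 to 19.8. The site at 7727918 was split into 2 sites in replicate 2, and the weaker of them had 3.34.

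The other 3 of the widest 5 were split in both replicates. The site at 9051047 to 9055032 was 3986 bp wide with 33.4 in the series-level list, and was split into 3 pieces in replicate 1 and 2 pieces in replicate 2. The site near the right end at 13462588 to 13466493 was 3906 bp wide with 51.1, and its best pieces were 2604 and 2653 bp wide with 23.5 and 18.0. The remaining one is the left-arm site at 832480. In all, 77 series-level sites of III (9.61%, exact Clopper-Pearson 95% interval 7.66 to 11.9) were wider than 1 kb, and 48 of them lay in the centre, 19 on the right arm and 10 on the left arm. Of these wide sites 53 were found in both replicates, 68.8% (57.3 to 78.9) beside 241 of the 724 narrower ones (33.3%). The other autosomes had a higher share, with 211 of their 270 sites over 1 kb found in both, which was not tested. On III the wide sites were also stronger than the narrower ones, with a median of 18.2 beside 5.58. Splitting was seen in 9 wide sites and in 0 of the sites of 1 kb or less.

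At the other end, 28 series-level sites of III were under 50 bp, with 2 bp as the smallest. None of them was found in both replicates and 26 were in neither. The other autosomes gave the same result, with 0 of their 225 series-level sites under 50 bp found in both. On III these short sites were weak, with a median series-level value of 4.14. The lowest value of any III site found in both was 5.79. The part of strength in this result was not tested. The strongest site of III found in neither replicate was 1 of the short sites, 28 bp long at 6644498 to 6644525 with a series-level value of 8.21. The next in neither were wider, at 343517 to 344624 with 8.06 and at 9390029 to 9391189 with 7.58. After the site at 7736520, the strongest in 1 replicate only were at 6695021 to 6695495, with 11.2 in the series-level list and 7.76 in replicate 2, and at 4495217 to 4496575, with 11.1 and 3.78 in replicate 1.

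NHR-11 sites on III were concentrated in the centre of the chromosome and were sparsest on its left arm. The centre, from 3.722 to 10.340 Mb by site midpoint, had 492 sites in the series-level list, 237 in replicate 1 and 254 in replicate 2. This gave 74.3, 35.8 and 38.4 sites per Mb. The left arm had 38.2, 14.2 and 17.2 per Mb, and the right arm 48.7, 21.9 and 23.9 per Mb. The nearest sites inside the left border, at 3759349 to 3759387, and outside it, at 3695554 to 3695634, had series-level values of 5.33 and 3.30. Those inside the right border, at 10333850 to 10334232, and outside it, at 10357730 to 10358015, had 14.0 and 4.41. In each list the 95% counting interval of the centre lay above those of both arms. In the same order of lists, the centre held 61.4% (57.95 to 64.8), 64.9% (59.8 to 69.8) and 63.5% (58.6 to 68.2) of the sites in 48.1% of the length. Exact two-sided binomial tests against that length passed in all 3 lists, with adjusted p of 2.01e-12, 1.56e-09 and 6.45e-09 (Benjamini-Hochberg over the 56 tests made here). These tests take each site as 1 unit, while neighbouring sites depend on each other, so the p-values are too small.

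The left arm held fewer sites than the right although it is longer. It had 142 sites beside 167 in the series-level list, 53 beside 75 in replicate 1 and 64 beside 82 in replicate 2. These are 45.95%, 41.4% and 43.8% of the arm sites, in 52.03% of the arms' length. The exact binomial tests did not pass after adjustment in any of the lists, with adjusted p of 0.0935, 0.0525 and 0.117. The median −log10 values of left-arm sites, 5.03, 4.81 and 4.85, were also below those of the centre (6.35, 5.32 and 5.58) and the right arm (5.74, 5.87 and 5.49), a difference that was not tested. On the left arm 31.0% of the series-level sites (23.5 to 39.3) were found in both replicates, compared with 38.4% (34.1 to 42.9) in the centre and 36.5% (29.2 to 44.3) on the right arm, and these intervals overlap.

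The other autosomes had a like concentration in the centre. With borders at the same fractions of their span, they had 60.01%, 61.9% and 61.9% of their sites in the centre in the series-level list and the 2 replicates. Fisher's exact test (two-sided) did not separate III from them, with adjusted p of 0.572, 0.412 and 0.653, nor from II and V alone (adjusted p of 0.415, 0.717 and 0.426). The density of the left arm of III, 14.2 sites per Mb in replicate 1 and 17.2 in replicate 2, lay between those of the other autosomes. II (11.6 and 13.1) and V (13.99 and 16.1) had lower left-arm densities with intervals overlapping that of III. I (25.4 and 24.9) and IV (30.9 and 35.5) had higher ones, and the intervals overlapped only for I in replicate 2.

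**Figure D2:**
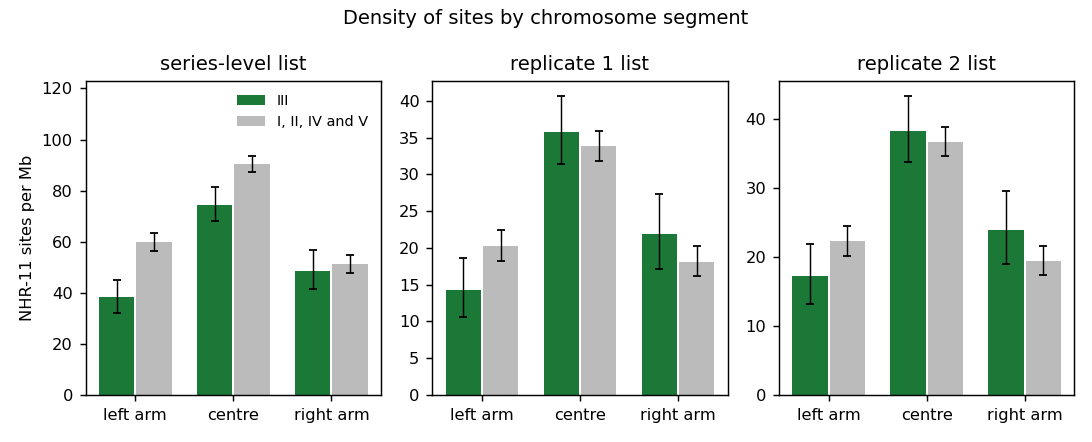
Bars give NHR-11 sites per Mb in the left arm, centre and right arm, for chromosome III (green) and the other autosomes combined (grey), with 1 panel per list and its own vertical scale from 0. Error bars are 95% Poisson intervals of the counts. On III the centre has 74.3, 35.8 and 38.4 sites per Mb and the left arm 38.2, 14.2 and 17.2.

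Over its whole length, III had 58.2 sites per Mb in the series-level list, 26.5 in replicate 1 and 29.05 in replicate 2. In the replicates this was near the 26.3 and 28.6 per Mb of the other autosomes together, and exact binomial tests against the share of span did not pass (adjusted p = 0.929 and 0.836). In the series-level list III was below them, with 13.9% of the autosomal sites (13.01 to 14.8) in 16.7% of the span (exact binomial, adjusted p = 4.23e-08), a difference that neither replicate showed. Set against II and V alone, III had 29.3% of the sites in 27.6% of the span, which did not pass (exact binomial, adjusted p = 0.108), and in the replicates 31.7% and 30.9%, both above the span (exact binomial, adjusted p = 0.00813 and 0.0245). Chromosome V was the sparser of these neighbours, with 18.1 and 21.2 sites per Mb in the replicates. Chromosome II had 26.8 (24.3 to 29.5) and 29.5 (26.8 to 32.3), and its intervals overlapped those of III (23.9 to 29.4 and 26.3 to 32.04). All these binomial tests take each site as 1 unit. In 100-kb windows of III, the variance of the count was 1.91 and 1.81 times its mean in the replicates. The p-values are therefore too small.

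Along III, sites found in both replicates rose from 8 in the megabase from 2 to 3 Mb to 24 from 3 to 4 Mb. They then stayed between 29 and 32 per Mb from 4 to 9 Mb. The count fell to 18 from 9 to 10 Mb, was 29 from 10 to 11 Mb, and was between 11 and 15 in each of the remaining bins up to the right end. The last bin, with 15, is shorter than the others because the span of III ends at 13.8 Mb, so its count understates its density. The high value from 10 to 11 Mb lies across the right border of the centre. The replicate lists had the same low bin from 2 to 3 Mb, with 9 and 11 sites.

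In windows of 100 kb, the fullest stretch of III for sites found in both replicates ran from 5600001 to 5700000, with 9 such sites. Replicate 1 had 10 sites there, replicate 2 had 9 and the series-level list 16. The window from 5700001 to 5800000 next to it held 7. The window from 7100001 to 7200000 held 8, and those from 3900001 to 4000000, from 6400001 to 6500000 and, on the right arm, from 10800001 to 10900000 held 7 each. Except for the last, all these windows lie in the centre. The fullest windows of the other autosomes held 7 sites found in both on I, 10 on II, and 8 on both IV and V. Windows with 5 or more such sites made up 11.6% on III, beside 18.0% on I, 11.1% on II, 10.3% on IV and 4.78% on V.

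The fullest window was made of many weak sites and 1 strong one. Its strongest site, at 5678849 to 5679316, had 38.1 in the series-level list, 25.1 in replicate 1 and 28.6 in replicate 2. The other 8 sites found in both replicates lay between 39.1 and 75.4 kb to its left. Their values were 8.68 to 17.0 in the series-level list, 3.89 to 6.83 in replicate 1 and 3.13 to 10.5 in replicate 2. The site in replicate 1 only had a series-level value of 5.55, and none of the 6 sites in neither replicate exceeded 4.88.

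**Figure D3:**
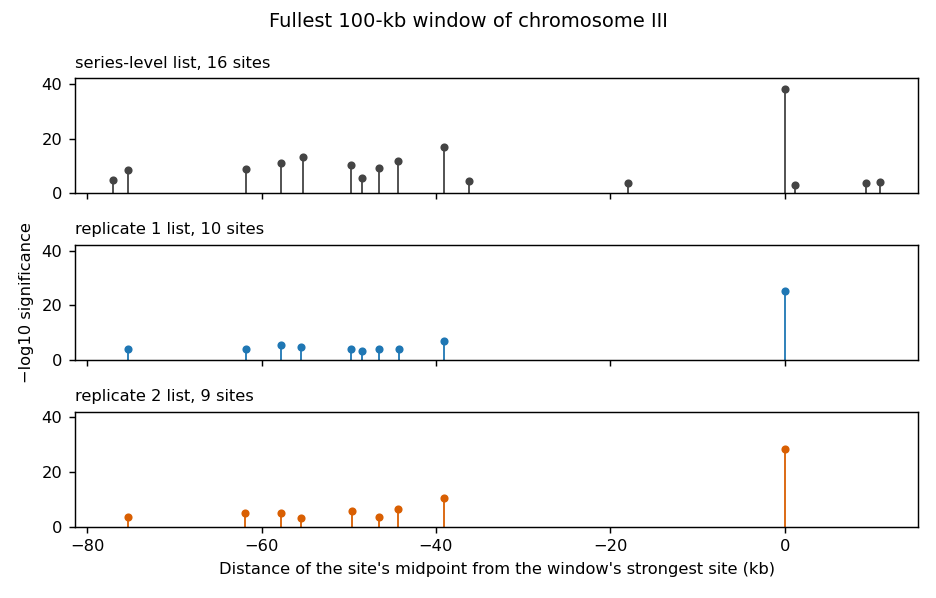
Each line is an NHR-11 site in the fullest 100-kb window of chromosome III, drawn at the distance of its midpoint from the window's strongest site (kb) and as high as its −log10 significance, with 1 panel per list. The series-level list has 16 sites, replicate 1 has 10 and replicate 2 has 9. The 8 further sites found in both replicates stand 39.1 to 75.4 kb to the left of the strongest one.

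Of the 138 windows of III, 31 (22.5%) held no site found in both replicates. These empty windows made up 40.5% of the left arm's windows, 28.6% of the right arm's and 9.09% of the centre's. On I, II, IV and V the share of empty windows was 20.7%, 20.9%, 18.3% and 36.4%, so III lay among the other autosomes. The longest gap between neighbouring sites found in both replicates was 337779 bp on the left arm, from 1080907 to 1418685. It held 9 series-level sites, 0 of replicate 1 and 2 of replicate 2, the strongest with a series-level value of 7.33.

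The next gaps were on the right arm, at 11937125 to 12250077 (312953 bp), 11390829 to 11689022 (298194 bp) and 12616209 to 12904812 (288604 bp), and on the left arm at 2172554 to 2438650 (266097 bp). The gap at 12616209 begins where the strong pair of sites at 12612183 ends. The longest gaps between such sites were longer on the other autosomes, from 383851 bp on IV to 787027 bp on II. The median gap between neighbouring sites found in both replicates was 24614 bp on III, 18138 bp on I, 27804 on II, 26041 on IV and 39149 on V. A gap under 5 kb separated 74 of the 293 neighbouring pairs on III (25.3%). This was near the shares on I (23.9%), II (24.5%), IV (23.5%) and V (20.6%). The shortest gap on III was 203 bp among series-level sites, 218 bp among those of replicate 1 and 216 bp among those of replicate 2. This was not particular to III. On the other autosomes the shortest gaps were 201 to 209 bp, 210 to 231 bp and 201 to 217 bp in these lists.

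Series-level sites of III were found in the replicates more often than those of the other autosomes. Both replicates held 294 of the 801 (36.7%, 33.4 to 40.1), 1 replicate held 155 (19.4%) and neither held 352 (43.9%, 40.5 to 47.5). Over all chromosomes 29.3% of the series-level sites were found in both and 51.2% in neither. On I, II, IV and V together 27.5% were found in both, and the difference from III passed Fisher's exact test (two-sided, adjusted p = 1.19e-06). The single values were 27.4% on I, 33.3% on II, 23.2% on IV and 29.01% on V. Against II and V alone the share was 36.7% beside 31.1% (Fisher's exact test, adjusted p = 0.0192), and against II alone it did not pass (Fisher's exact test, unadjusted p = 0.132). The share found in neither was lower on III than on the other autosomes (53.4%, Fisher's exact test, adjusted p = 3.92e-06), and not past the threshold against II and V (46.3%, adjusted p = 0.402). The series-level count of III was 2.09 times its mean replicate count, beside 2.24 on II, 2.36 on V, 2.72 on I and 3.09 on IV. The part of this in the shares was not tested. Sites found in both numbered 21.3 per Mb on III and 19.9 on the other autosomes (exact binomial, adjusted p = 0.398).

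Sites of III found in both replicates had a median series-level value of 14.6 and a median width of 538.5 bp. Those in neither had 3.92 and 299.5 bp. From 5 upwards, the share found in both followed the series-level value. It was 65 of 245 (26.5%, 21.1 to 32.5) from 5 to below 10. It was 146 of 149 (97.99%, 94.2 to 99.6) from 10 to below 20, and 83 of 83 from 20 upwards. From 3 to below 5 it was 0 of 324 sites, and 0 of 1941 on the other autosomes. The replicate lists themselves end at a −log10 of 3, so a site found in both has at least 3 in each. As given above, the median ratio of series-level value to the replicates' sum was 1.05 on III. The lowest series-level value of a III site found in both was 5.79. The share from 3 to below 5 therefore cannot show how often weak sites recur, and no interval is given for it. The part of the limit in the other shares was not tested.

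At like series-level values, the shares on III were near those of II and V and above those of I and IV. From 5 to below 10, the share found in both was 26.5% on III, 26.7% on II and 26.4% on V, beside 4.21% on I and 4.95% on IV. From 10 to below 20 it was 97.99% on III, 91.8% on II and 95.1% on V, beside 75.1% on I and 63.9% on IV. Fisher's exact test separated III from the other autosomes in both ranges (adjusted p = 1.49e-06 and 2.29e-10), but not from II and V (adjusted p = 1.0 and 0.0962). The series-level values of I and IV stood higher against the replicates' sums, as given above, and the part of this in the shares was not tested.

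**Figure D4:**
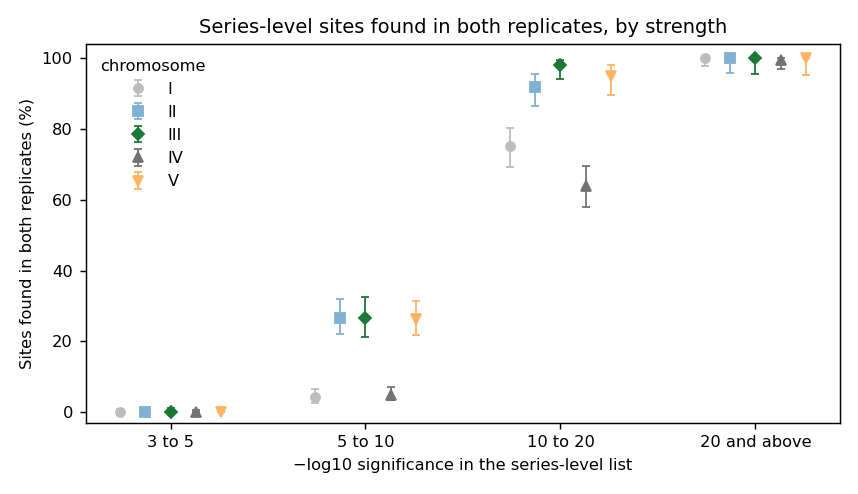
The horizontal axis groups series-level sites by their −log10 significance, and the vertical axis is the percentage found in both replicates, with exact 95% intervals, for each autosome. In the group from 5 to 10, chromosome III (diamonds) stands at 26.5% beside II and V, above I at 4.21% and IV at 4.95%.

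The 2 replicates gave much the same sites on III. Of the replicate 1 sites, 298 of 365 (81.6%, 77.3 to 85.5) overlapped a site of replicate 2, beside 77.5% over all chromosomes. Of the replicate 2 sites, 299 of 400 (74.8%, 70.2 to 78.9) overlapped one of replicate 1, beside 71.4% over all chromosomes. III was above the other autosomes (76.9% and 70.7%) by margins that did not pass Fisher's exact test (adjusted p = 0.115 and 0.19).

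The unpaired sites were weak, with a median of 3.81 among the 67 of replicate 1 and 3.69 among the 101 of replicate 2. The strongest of them in replicate 1 was at 5360993 to 5361060 with 5.39, and the 178 sites of III above it were all paired. In replicate 2 it was at 6695031 to 6695466 with 7.76, with 122 paired sites above it. On III, 362 sites of replicate 1 and 397 of replicate 2 overlapped the series-level list, and the 3 missing from it in each had values of 3.35 or less. The same overlap on the other chromosomes is not given here, so these counts show nothing particular to III.

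On III 289 sites paired one to one between the replicates. Their −log10 values had a Spearman's rho of 0.79 and a Pearson's r of 0.95, given as a description across sites of 1 pair of libraries. On the other autosomes together the same values were 0.78 and 0.93. Midpoints lay a median of 30.5 bp apart in the pairs on III. The pair furthest apart in ratio began at 3927430 in replicate 1, with 4.36 there and 12.2 in replicate 2. In the opposite direction, the pair that begins at 5939385 had 13.5 in replicate 1 and 6.12 in replicate 2, with widths of 1877 and 770 bp. Nothing in the labels tells whether the replicates are separate worm cultures, so this spread may be technical.

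**Figure D5:**
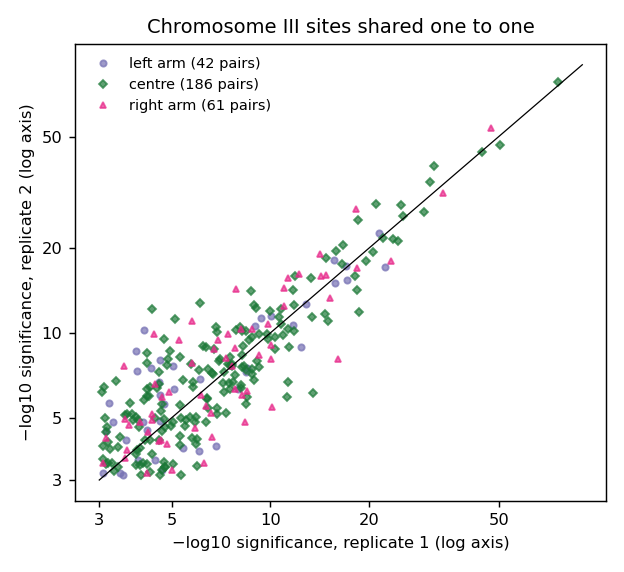
Each point is 1 of the 289 chromosome III sites that overlap one to one between the replicates, with −log10 significance in replicate 1 across and in replicate 2 upwards, both on log axes. The line marks equal values, and symbols mark the 42 pairs on the left arm, 186 in the centre and 61 on the right arm. The strongest pair lies at 76.0 and 78.2.

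In strength, sites on III did not stand apart. The median was 6.02 in the series-level list, 5.29 in replicate 1 and 5.50 in replicate 2, beside 6.03, 5.08 and 5.14 on the other autosomes. The share of III sites above the other autosomes' median was 49.9%, 52.3% and 52.5%, and Fisher's exact test did not pass in any list (adjusted p of 1.0, 0.537 and 0.495). Among sites found in both replicates, 38.8% of those on III exceeded the other autosomes' median (Fisher's exact test, adjusted p = 0.00234), whereas 55.4% exceeded that of II and V (adjusted p = 0.229). The direction thus turned with the chromosomes compared.

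Sites on III were wider than those of the other autosomes in the series-level list. The median width was 395 bp on III and 335 bp on I, II, IV and V, and 63.8% of the III sites (60.4 to 67.1) exceeded the other autosomes' median (Fisher's exact test, adjusted p = 4.31e-12). Against II and V alone the share was 56.7% (Fisher's exact test, adjusted p = 0.00555). In the replicates the medians on III were 406 and 410 bp, beside 384 and 387 bp, and the shares of 56.2% and 55.3% above the other autosomes' median did not pass Fisher's exact test (adjusted p = 0.0859 and 0.108). Against II and V in the replicates they were 55.1% and 52.5% and did not pass Fisher's exact test either (adjusted p = 0.205 and 0.49). Sites over 1 kb made up 9.61% of the series-level sites on III and 5.44% on the other autosomes (Fisher's exact test, adjusted p = 6.87e-05). Against II and V, with 7.14%, and in the replicates, with 9.04% beside 6.71% and 8.25% beside 6.33%, the difference did not pass Fisher's exact test (adjusted p = 0.0935, 0.207 and 0.297). Width and strength went together on III, with a Spearman's rho of 0.54 across the 801 series-level sites. This was near the 0.55 on II and 0.58 on V, and below the 0.71 on both I and IV, differences that were not tested. In the replicates rho was 0.45 and 0.47 on III, beside 0.54 and 0.55 on the other autosomes together. II had 0.49 and 0.50 there, and V had 0.57 and 0.48. Among sites found in both replicates rho was 0.46 on III, 0.41 on V, 0.48 on II, 0.60 on I and 0.68 on IV.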

How the data were processed

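The authors deposited lists of sites for ChIP replicate 1, ChIP replicate 2 and the series as a whole, with 1 significance value per site. Per the file headers, coordinates are in WormBase WS220, and the source column names PeakSeq as the caller. Not given in the sources used here are its version and settings, the aligner, the use of input and how the series-level list was made. The deposited value was taken for a p-value or a q-value, since all values lie above 0 and below 0.001. Which of the 2 it is was not stated. Here it was turned into −log10.

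Sites were joined with Python 3.11.15, pandas 2.3.3 and SciPy 1.17.1, by an overlap of 1 bp or more. The span of a chromosome ended at its last listed site (13.8 Mb for III). Borders of the other autosomes' centres were set at 27.03% and 75.1% of their spans, as on III. Tests were exact binomial and Fisher's exact tests, two-sided, adjusted by Benjamini-Hochberg over 56 tests, with a threshold of 0.05. They count sites as units, while neighbouring sites depend on each other, so the p-values tend to be too small. Intervals are exact 95% intervals for counting error only. The joins and tests were tested on simulated data. Named were the 15 strongest sites, the strongest per segment, the 5 widest, the 3 strongest in 1 replicate and in neither, the fullest windows, the longest gaps and the strongest unpaired sites. Neighbours of these sites and the most unequal pairs were chosen after their values were seen. Members and lists were chosen with earlier results of these data known. Input libraries, gene positions and sequences were not analysed here.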

Additional observations from a re-analysis of the deposited data

How the results depend on the processing

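The lists carry no read counts, so the effect of depth on the number and strength of sites could not be assessed. The exact p-values in this paragraph are unadjusted. The low share of III among autosomal series-level sites (13.9% beside 16.7% of the span) turned to the other side with 1 replicate list alone (16.8% to 16.9%) and in sites found in both (17.7%, exact p = 0.263). Against II and V alone it was 29.3% beside 27.6% of the span (exact p = 0.0467), and for sites found in both, an alternative chosen after seeing the data, 32.8%. In the upper 50% of the list it stayed low. The share found in both replicates (36.7%) remained above that of the other autosomes with stricter overlap or the upper 50% of the list (28.6% to 40.7%) and with 1 replicate list alone (44.2% to 48.6%). Against II alone, chosen after seeing the data, the same 36.7% stood beside 33.3% and no longer passed (exact p = 0.132). The share in the centre (61.4%) lay below that of II and V (63.6%) and above that of the other autosomes under the other alternatives, and no exact test passed. The smaller share of arm sites on the left arm (45.95%, exact p = 0.035) held its direction in each alternative (43.8% to 41.4% with 1 replicate list alone), and no longer passed in the replicate 2 list (exact p = 0.0564). The share above the other autosomes' median strength (49.9%) was 52.3% to 52.5% with 1 replicate list alone, 54.1% against II and V, and 38.8% in sites found in both, where it passed. The share above the other autosomes' median width (63.8%) was 55.3% to 56.2% with 1 replicate list alone, and 54.8% in sites found in both, where it no longer passed. The share of replicate 1 sites found in replicate 2 did not pass under any alternative. The fullest window held 16 sites when all series-level sites were counted, and 9 to 10 with 1 replicate list alone. The longest gap was 337779 bp on the left arm, and 337813 bp in the same place in the replicate 1 list. Its place changed in the other lists. In replicate 2 it was 313044 bp on the right arm, between the sites ending at 11937063 and beginning at 12250108. Between all series-level sites it was 203319 bp, from 2172554 to 2375872 on the left arm. The cause of these changes was not tested. No paired analysis was possible because the tests use lists of the ChIP libraries alone, and no values of the input libraries that share their numbers were used here.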
